A study of Mus musculus with 12 samples.

Results

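The miR-17-92 cluster is a row of 6 microRNA hairpins that the mouse genome carries inside the host transcript Mir17hg on chromosome 14. Its members were taken by name from the rows of the count files, as the hairpins of miR-17, miR-18a, miR-19a, miR-20a, miR-19b and miR-92a without their paralogs, which gave 7 mature arms of the 1978 miRNAs listed. The rows are mmu-miR-17-5p, mmu-miR-17-3p, mmu-miR-18a-5p, mmu-miR-19a-3p, mmu-miR-20a-5p, mmu-miR-19b-3p and mmu-miR-92a-3p, written below without the species prefix. The rule uses names only, though the cluster was picked with earlier results of these data known. The small RNA libraries came from mouse embryonic stem cells (ESC) of the established line E14 and from trophoblast stem cells (TSC), which give rise to the placenta, all grown in vitro. Each cell type was sampled as untreated cells, labelled WT and called controls here, and as cells whose growth kinase mTOR was inhibited, called paused. This inhibition puts these cells into a reversible dormancy that resembles embryonic diapause. Not given in the sources used here are the inhibitor, its dose and its duration, the TSC line and the culture medium, and E14 is the 1 ESC line studied. The labels list 3 samples per group, but in each of the 4 groups replicates 2 and 3 hold the same values for all 1978 miRNAs and so differ by less than sampling noise. They were counted as 1 sample, which leaves 2 distinct libraries per group and 8 in all.

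As background, the cluster is transcribed as 1 primary transcript under the control of Myc, and Drosha and Dicer cut it into short duplexes from which 1 or both arms are kept. A mature arm pairs with messenger RNAs mainly through its seed, bases 2 to 8, and lowers their translation and stability. The cluster is known for promoting proliferation and cell survival, and it is abundant in pluripotent cells and many tumours. Among its arms, miR-17-5p and miR-20a-5p repress cell cycle inhibitors such as Cdkn1a, miR-18a-5p represses Ccn2, and miR-92a-3p represses the pro-apoptotic gene Bcl2l11.

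The sequences of the 7 arms are shown because the comparisons turn on how alike they are to one another and to arms made elsewhere. They are from RefSeq (GRCm38.p6), 5′ to 3′, with the seed in capitals.
miR-17-5p: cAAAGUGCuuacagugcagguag
miR-20a-5p: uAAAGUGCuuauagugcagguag
miR-18a-5p: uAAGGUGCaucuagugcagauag
miR-19a-3p: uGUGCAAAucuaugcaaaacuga
miR-19b-3p: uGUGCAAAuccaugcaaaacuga
miR-92a-3p: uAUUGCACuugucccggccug
miR-17-3p: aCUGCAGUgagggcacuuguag
Counted from the 5′ end, with the base of the first-named arm first, miR-17-5p and miR-20a-5p differ by C1U and C12U and share the seed AAAGUGC. The arms miR-19a-3p and miR-19b-3p share the seed GUGCAAA and differ by U11C alone. The 7 arms thus carry 5 seeds.

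All 6 hairpins lie on the plus strand within exon 2 of Mir17hg, a long noncoding RNA gene at chr14:115042879-115046727 (GENCODE annotation of GRCm38, exon 2 from 115043271 to 115046727). The first hairpin starts at 115043671 and the last ends at 115044506, so the row spans 836 bases. The Mir17 hairpin (chr14:115043671-115043754) is shown because it gives both arms followed below, with miR-17-5p and then miR-17-3p in capitals.
Mir17: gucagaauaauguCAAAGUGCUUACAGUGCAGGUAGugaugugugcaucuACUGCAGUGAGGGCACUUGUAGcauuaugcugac
The mature arms miR-19b-3p and miR-92a-3p are also made, with the same sequence, by the hairpins Mir19b-2 and Mir92-2 of the paralog cluster miR-106a-363 on chromosome X. Counts of these 2 arms can come from either locus, while the other 5 members come from chromosome 14 only.

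Total counts per library ran from 13607 to 115492, and 3 counts, as many as an observed 0 still allows, correspond to 220.5 CPM (counts per common library total) in the shallowest library and 26.0 CPM in the deepest. Intervals of shares and limits for 0 counts cover counting error only. The 95% intervals of log2 changes given below come from the standard error of the model fit, which includes spread between libraries. All 7 members were among the 206 miRNAs deep enough to test. The labelled cell types were compared on marker lists. These lists were chosen with earlier results of these data known, so a separation of the labels by them is not an independent check. The TSC markers miR-322-5p, miR-503-5p and miR-351-5p summed to 117854 to 139872 CPM in TSC controls, 51418 to 63716 CPM in paused TSC and at most 1023 CPM in ESC libraries. The 5 ESC markers were miR-302a-3p, miR-302b-3p, miR-302d-3p, miR-367-3p and miR-708-5p. They summed to 3464 to 6199 CPM in ESC controls, 1330 to 1334 CPM in paused ESC and at most 89.2 CPM in TSC. The 6 fibroblast or feeder markers summed to 703 to 1003 CPM in ESC controls, 850.8 to 972.6 CPM in paused ESC, 301 to 942.7 CPM in TSC controls and 151.2 to 413.3 CPM in paused TSC. Among them miR-199a-3p and miR-199a-5p had no count in any library, and miR-214-3p had none in ESC. Because these are bulk samples, fewer cells of a type and less RNA per cell cannot be told apart.

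The cluster took a larger share of all counts in ESC than in TSC. The 7 arms held 7.73% and 9.58% of the counts in the libraries of control ESC and 9.97% and 9.91% in paused ESC. They held 2.19% and 1.54% in TSC controls and 2.85% and 3.15% in paused TSC. Every ESC library lay above every TSC library, over both states together (exact two-sided permutation test, 4 against 4 libraries, p = 0.0286, the smallest such a design can give). The group means were 8.65% ± 1.30 in ESC controls, 9.94% ± 0.0400 in paused ESC, 1.86% ± 0.454 in TSC controls and 3.00% ± 0.212 in paused TSC (SD, n = 2). Within each cell type the paused libraries lay above the control libraries, but 2 libraries against 2 cannot go below p = 0.33 in an exact permutation test. Without the 2 arms that chromosome X also makes, the shares were 7.20% and 9.11% in ESC controls against 9.06% and 9.02% in paused ESC. For those 5 arms the control and paused ESC libraries overlapped, and the separation from TSC remained (exact permutation test, 4 against 4 libraries, p = 0.0286).

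Levels are given from here as CPM after TMM scaling (trimmed mean of M-values), in the order replicate 1 and replicate 2. The marker sums above were scaled in the same way, while the CPM given there for 3 counts were on total counts. The most abundant arm of the cluster in ESC was miR-19a-3p, at 37644 and 50743 CPM in ESC controls and 66028 and 66207 CPM in paused ESC. In TSC it stood at 12204 and 4755 CPM in the control and 10953 and 9526 CPM in paused cells. The lowest ESC library was thus above the highest TSC library, and relative to their level the control TSC libraries differed more than those of any other group. Its group means differed by 5.08-fold between control ESC and control TSC and by 6.46-fold between the paused groups, as fitted.

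The arm miR-17-5p, which gives the cluster its name, had a different pattern. It was counted at 19506 and 23326 CPM in ESC controls, 12407 and 14309 CPM in paused ESC, 16344 and 10172 CPM in TSC controls, and 13557 and 15483 CPM in paused TSC. Control ESC was the highest group, and the other 3 groups overlapped one another. In both TSC groups miR-17-5p was the most abundant arm, and in both ESC groups it was second to miR-19a-3p.

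The arm miR-18a-5p, whose seed differs from that of miR-17-5p by 1 base, was counted at 2507 and 2556 CPM in ESC controls and 2232 and 2104 CPM in paused ESC. In TSC it was at 649.7 and 180.6 CPM in the control, the second value resting on 3 counts, and at 413.3 and 544.3 CPM in paused cells. The sister of miR-17-5p by seed, miR-20a-5p, was at 3145 and 2237 CPM in ESC controls, 2332 and 3248 CPM in paused ESC, 891.7 and 1023 CPM in TSC controls, and 744.0 and 997.9 CPM in paused TSC. Both arms were higher in every ESC library than in any TSC library.

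The last arm of the row, miR-92a-3p, stood at 4330 and 3771 CPM in ESC controls, 7794 and 8137 CPM in paused ESC, 1478 and 722.3 CPM in TSC controls, and 1199 and 1633 CPM in paused TSC. Paused ESC was the highest group and did not overlap any other. The scarcest members were miR-19b-3p and miR-17-3p. The first had 364.6 and 255.6 CPM in ESC controls, 561.1 and 402.2 CPM in paused ESC, 242.0 and 60.2 CPM in TSC controls, and 165.3 and 151.2 CPM in paused TSC, on 1 to 45 counts per library. The second, the passenger arm of the miR-17 hairpin, had 410.2 and 383.4 CPM in ESC controls, 124.7 and 293.9 CPM in paused ESC, 343.9 and 481.5 CPM in TSC controls, and 785.3 and 665.3 CPM in paused TSC, on 6 to 27 counts. It was the only member with its highest group in TSC.

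**Figure D1:**
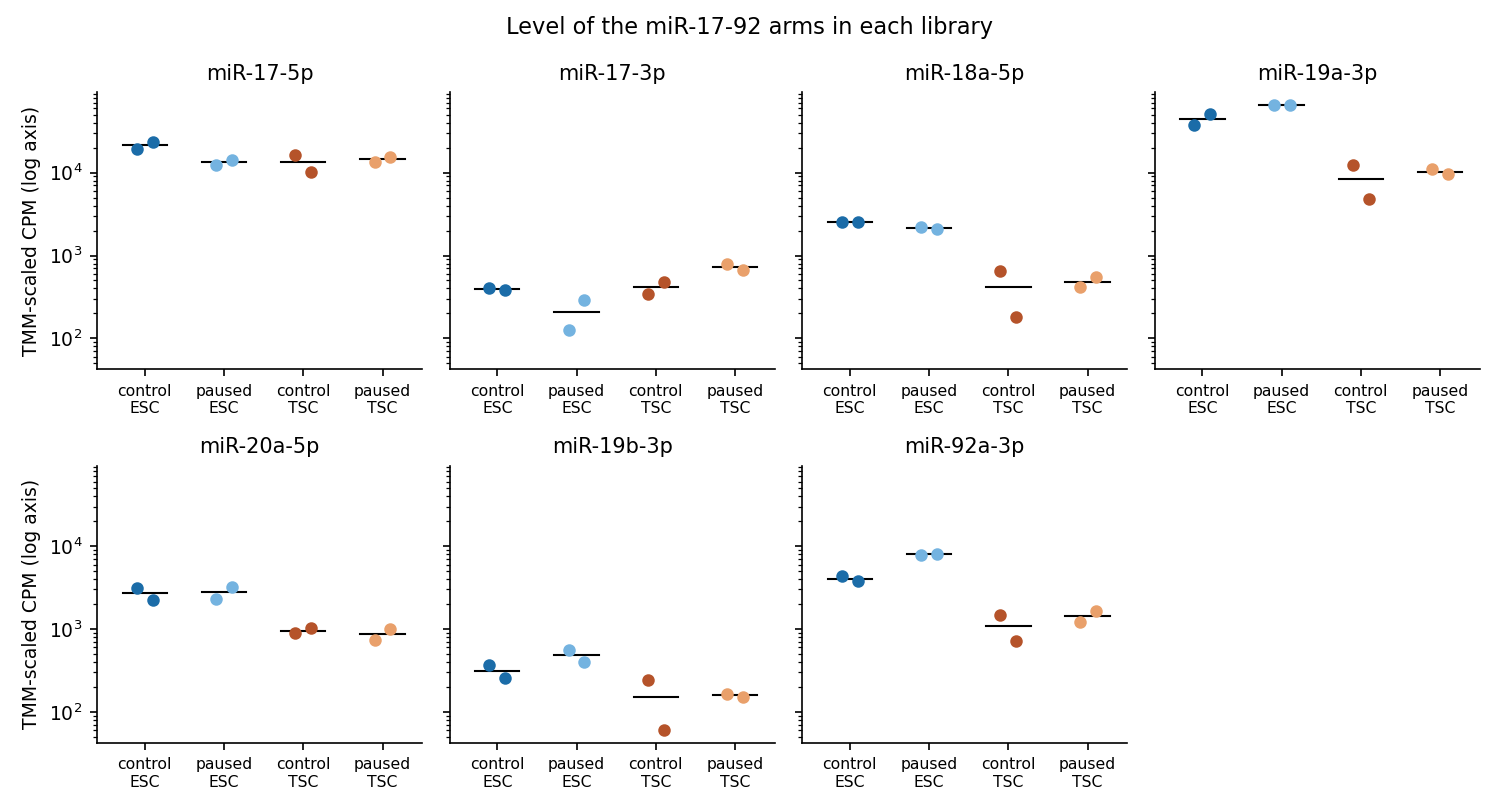
Level of each of the 7 arms in each of the 8 libraries, as TMM-scaled CPM on a log axis. Points are libraries and bars are group means (n = 2). The arms miR-18a-5p, miR-19a-3p, miR-20a-5p and miR-92a-3p are higher in all 4 ESC libraries than in all 4 TSC libraries. So is miR-19b-3p, narrowly, with 255.6 CPM in the lowest ESC library and 242.0 CPM in the highest TSC library. For miR-17-5p control ESC is the highest group, and the other groups overlap one another.

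In order of mean level, the arms of control ESC ran from miR-19a-3p (44194 CPM ± 9262) over miR-17-5p (21416 ± 2702), miR-92a-3p (4050 ± 395), miR-20a-5p (2691 ± 642) and miR-18a-5p (2531 ± 35.2) to miR-17-3p (397 ± 18.9) and miR-19b-3p (310 ± 77.1). The errors are SDs over 2 libraries. In this order the neighbours miR-20a-5p and miR-18a-5p overlapped between libraries, and the others did not. In paused TSC the order was miR-17-5p (14520 CPM ± 1362), miR-19a-3p (10239 ± 1009), miR-92a-3p (1416 ± 307), miR-20a-5p (871 ± 180), miR-17-3p (725 ± 84.9), miR-18a-5p (479 ± 92.6) and miR-19b-3p (158 ± 9.99). There miR-20a-5p and miR-17-3p overlapped. The arms are 21 to 23 bases long, so no correction for length was made in setting one arm against another.

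The difference between the cell types was tested in each state with edgeR's quasi-likelihood test, adjusted by Benjamini-Hochberg over all 206 tested miRNAs and called at an adjusted p under 0.05. In control cells 5 of the 7 members were higher in ESC and none was lower. At the same threshold 33.5% of all tested miRNAs were higher in ESC controls and 74.3% were called in either direction, so being called is common in this comparison. The log2 differences were 2.35 ± 0.322 for miR-19a-3p (adjusted p = 5.57e-12), 2.32 ± 0.433 for miR-18a-5p (3.66e-07), 1.76 ± 0.377 for miR-92a-3p (1.02e-05), 1.53 ± 0.408 for miR-20a-5p (0.000395) and 0.68 ± 0.317 for miR-17-5p (0.0439), each with its standard error from the fit. For miR-19b-3p (0.66 ± 0.671, adjusted p = 0.371) and miR-17-3p (0.07 ± 0.557, 0.915) the edgeR test did not pass. The median over the members was 1.53, against -0.23 over all tested miRNAs, and 6 of 7 members did not overlap between the groups, as was true of 84.5% of all tested.

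The call of miR-17-5p in control cells was lost with a filter at 10 CPM (edgeR adjusted p = 0.136) and without control ESC replicate 2 (0.0612). Without control TSC replicate 1, the deepest library, the log2 differences between control ESC and control TSC rose to 1.32 for miR-17-5p, 4.02 for miR-18a-5p, 3.46 for miR-19a-3p and 2.73 for miR-92a-3p, and with scaling to the total count alone miR-20a-5p came to 2.13.

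In paused cells the same test called 6 of the 7 members. Higher in paused ESC were miR-19a-3p (log2 difference 2.69 ± 0.325, edgeR adjusted p = 2.80e-15), miR-92a-3p (2.48 ± 0.367, 8.77e-11), miR-18a-5p (2.15 ± 0.432, 1.61e-06), miR-20a-5p (1.66 ± 0.395, 5.64e-05) and miR-19b-3p (1.61 ± 0.587, 0.00896). Of these, miR-19b-3p reached the filter's level of about 369 CPM in ESC libraries only. In TSC it was at most 169.1 CPM on total counts. The direction of its call was thus largely fixed by its being tested. The arm miR-17-3p was lower in paused ESC than in paused TSC (-1.81 ± 0.462, edgeR adjusted p = 0.000165). For miR-17-5p the difference was -0.12 ± 0.313, with a 95% interval from -0.73 to 0.49. Of all tested miRNAs, 37.4% were higher and 39.3% lower in paused ESC, 76.7% in all. Here 6 of 7 members did not overlap between the groups, against 90.8% of all tested, and the member median was 1.66 against 0.01.

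The call of miR-17-3p between the paused groups was lost with DESeq2 (log2 -1.40, adjusted p = 0.0895), and that of miR-19b-3p without paused TSC replicate 2 (edgeR adjusted p = 0.0623). With TMM factors taken from the miRNAs outside the miR-290 cluster the overall median moved by 0.67, the difference of miR-17-3p came to -1.12 and that of miR-17-5p changed sign to 0.55.

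**Figure D2:**
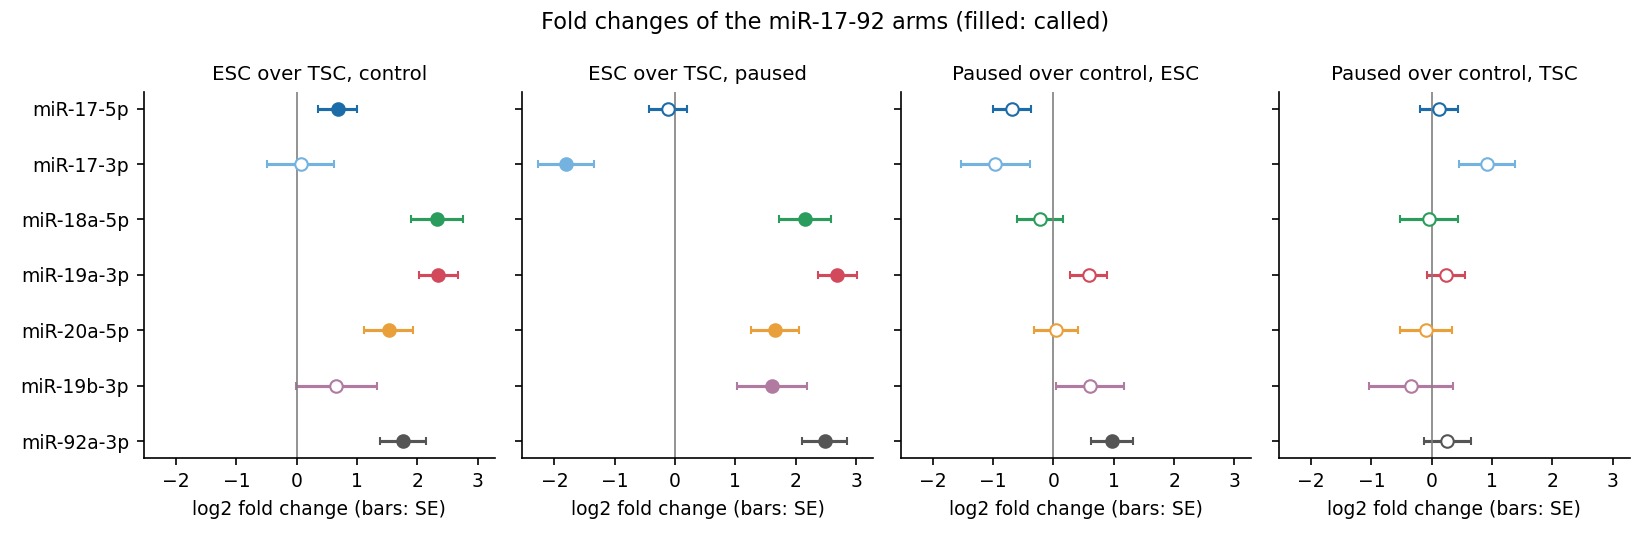
Log2 fold changes of the 7 arms in 4 comparisons, with bars of 1 standard error from the edgeR fit on 8 libraries. Filled points have an adjusted p under 0.05. In both ESC over TSC panels miR-18a-5p, miR-19a-3p, miR-20a-5p and miR-92a-3p are filled and to the right of 0, while in the panels of paused over control cells only miR-92a-3p in ESC is filled.

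The cell types also differed in the make-up of the cluster, which can be read within a library, where no scaling enters. In control ESC, miR-19a-3p made up 58.2% ± 3.89 of the cluster's counts and miR-17-5p 28.4% ± 0.504 (SD, n = 2). In paused ESC miR-19a-3p made up 71.0% ± 1.60 and miR-17-5p 14.3% ± 1.09. In control TSC the order was turned, with 54.7% ± 5.41 on miR-17-5p and 32.7% ± 7.51 on miR-19a-3p, and paused TSC had 51.1% ± 3.29 and 36.1% ± 4.62. The third arm in every group, miR-92a-3p, took 5.45% ± 1.31, 8.56% ± 0.0511, 4.37% ± 0.314 and 4.97% ± 0.935 in ESC controls, paused ESC, control TSC and paused TSC.

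**Figure D3:**
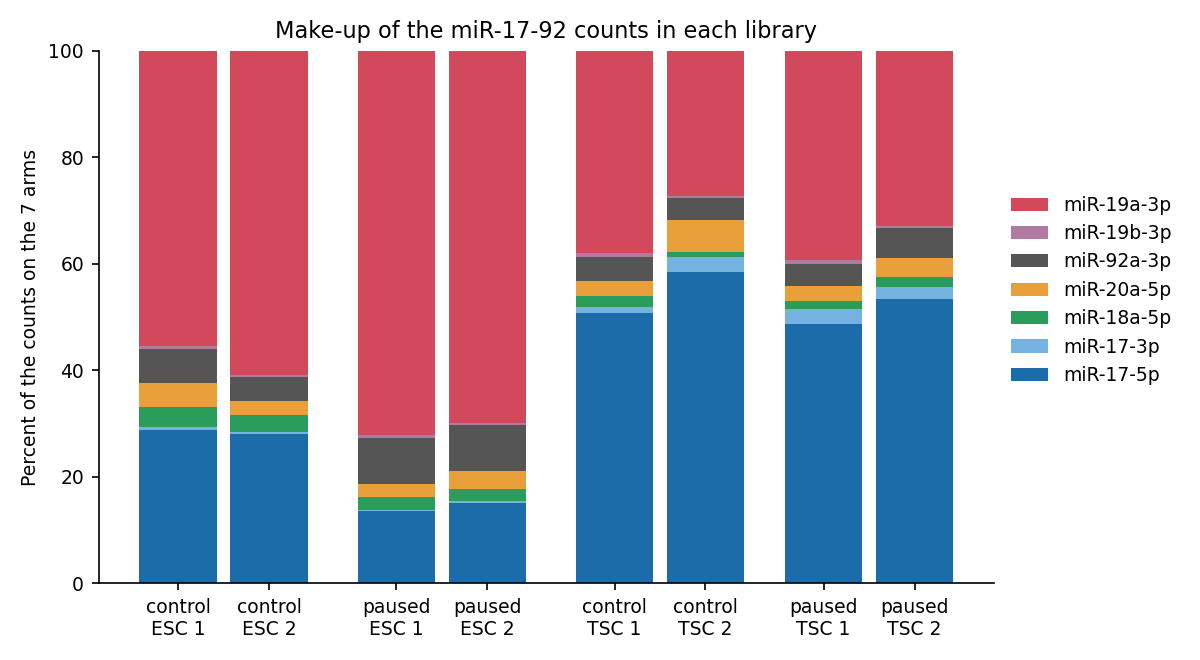
Share of each arm among the counts of the 7 arms, in percent, for each of the 8 libraries (each bar adds up to 100 percent). The bars of miR-19a-3p are taller than those of miR-17-5p in all ESC libraries and shorter in all TSC libraries.

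As counts of miR-19a-3p per count of miR-17-5p, the ratio was 1.93 and 2.17 in ESC controls, 5.32 and 4.63 in paused ESC, 0.747 and 0.467 in TSC controls, and 0.808 and 0.615 in paused TSC. Over both states it was 4.94-fold higher in ESC, a difference of 2.31 on the log2 scale. Likewise 4.71-fold higher in ESC was miR-18a-5p per miR-17-5p (log2 difference 2.24), and 3.83-fold higher was miR-92a-3p per miR-17-5p (1.94). Each of these 3 ratios was higher in all 4 ESC libraries than in all 4 TSC libraries, and miR-17-3p per miR-17-5p was lower in all 4 (log2 difference -1.28). The last separation is narrow, since the highest ESC ratio was 0.02103, on 9 counts of miR-17-3p, and the lowest TSC ratio 0.02104, on 27. For each of the 4 the exact two-sided permutation test gave p = 0.0286, the smallest possible with 4 against 4 libraries, and 0.05 after Benjamini-Hochberg adjustment over the 7 ratios compared, which is not under 0.05. The ratios of miR-20a-5p (log2 difference 1.27, exact permutation p = 0.0571, adjusted 0.08) and miR-19b-3p (1.16, exact permutation p = 0.0857, adjusted 0.1) to miR-17-5p overlapped between the cell types. These tests pool the control and paused libraries of a cell type, and the ratios to miR-17-5p share that denominator, so they are not independent. Within control cells alone the log2 difference of the miR-19a-3p ratio was 1.79, and within paused cells 2.81.

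When ESC were paused, miR-92a-3p was the 1 member of 7 that passed the test. It rose 1.96-fold, from 4050 CPM ± 395 to 7965 CPM ± 243 (SD, n = 2), a log2 change of 0.97 ± 0.344 with an edgeR adjusted p of 0.0230. Of all tested miRNAs 8.25% rose and 27.7% changed in either direction, which makes 1 call among 7 nothing particular to the cluster. The call of miR-92a-3p was lost with TMM factors computed without the miR-290 cluster (log2 change 1.03, edgeR adjusted p = 0.104) and without paused ESC replicate 1 (0.97, 0.0859). The replicate number as a block within each cell type also lost this call, as given in the closing section. For miR-92a-3p both paused libraries lay above both control libraries, and the counts of this arm can come from chromosome 14 or X.

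The other members had changes on both sides of 0 in paused ESC. The largest by size was miR-17-3p (-0.96 ± 0.571, edgeR adjusted p = 0.219), on 15 counts over both control libraries and 29 over both paused ones. For miR-17-5p the log2 change was -0.68 ± 0.315 (edgeR adjusted p = 0.0924, unadjusted p = 0.0309), with a 95% interval from -1.30 to -0.06. For miR-19a-3p it was 0.58 ± 0.304 (edgeR adjusted p = 0.148), with an interval from -0.01 to 1.18. Neither of these abundant arms passed the test. The values of miR-19b-3p (0.61 ± 0.566), miR-18a-5p (-0.22 ± 0.376) and miR-20a-5p (0.04 ± 0.368) had edgeR adjusted p-values of 0.438 to 0.953. In 6 of the 7 members the paused and control libraries did not overlap, as in 68.4% of all tested miRNAs, and the member median was 0.04 against -0.03 for all tested.

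The calls of miR-17-5p and miR-19a-3p in paused ESC moved with the fit. The arm miR-17-5p passed as lower with scaling to the total count (log2 change -0.78, edgeR adjusted p = 0.00780), with only the ESC groups in the fit (-0.69, 0.0109), with every file as a library (-0.69, 0.00555), and without control TSC replicate 1 (0.0191) or 2 (0.0361). It did not pass under the other alternatives, where the log2 change was as small as -0.36 with no filter (edgeR adjusted p = 0.805), -0.39 without paused TSC replicate 1 (0.259) and -0.21 without control ESC replicate 2 (0.728). The arm miR-19a-3p passed as higher with median-of-ratios scaling (0.71, 0.0154), with only the ESC groups in the fit (0.58, 0.0173), and without control ESC replicate 2 (1.16, 0.00887), control TSC replicate 1 (0.66, 0.00312), control TSC replicate 2 (0.69, 0.00269) or paused TSC replicate 1 (0.88, 0.00992).

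Read as ratios within a library, the balance of the arms in paused ESC is free of scaling. The counts of miR-92a-3p per count of miR-17-5p went from 0.222 and 0.162 in ESC controls to 0.628 and 0.569 in paused ESC, a log2 change of 1.66. The ratio of miR-19a-3p to miR-17-5p went up by 1.28 on the log2 scale, that of miR-19b-3p by 1.32, that of miR-20a-5p by 0.73 and that of miR-18a-5p by 0.45. In these 5 ratios the paused libraries were above the control libraries, while for miR-17-3p they overlapped (-0.37). All these ratios share miR-17-5p, which itself had a log2 change of -0.68 in the fit, so they are not independent. A higher ratio is thus not a rise of its arm, as the fitted changes of miR-18a-5p (-0.22) and miR-20a-5p (0.04) show. With 2 libraries against 2 the exact permutation test of each separated ratio gave p = 0.33, the smallest it can give, so none of these can pass on its own. In TSC none of the 6 ratios separated paused from control cells, and their log2 changes ran from -0.32 to 0.66.

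**Figure D4:**
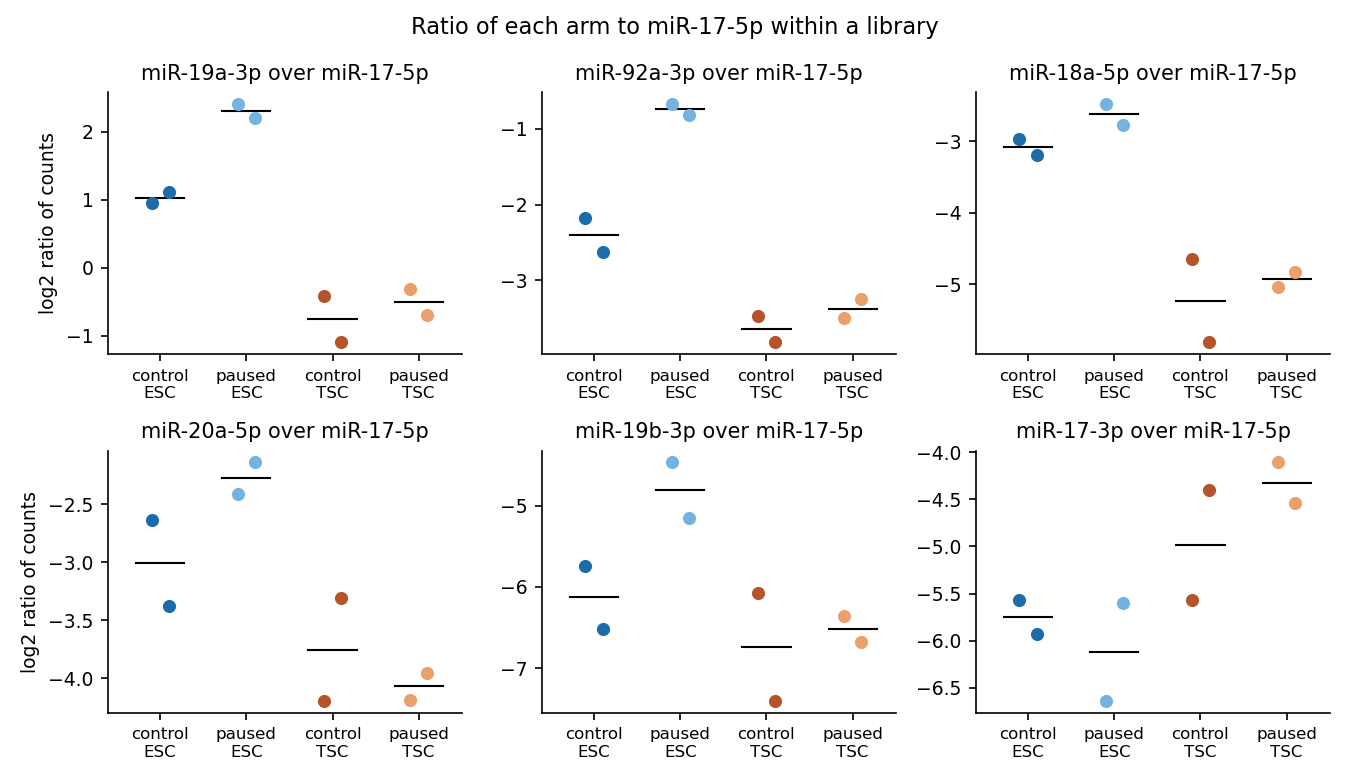
Log2 of the counts of each arm per count of miR-17-5p, by group. Points are libraries and bars are group means (n = 2). In paused ESC the ratios of miR-19a-3p and miR-92a-3p lie above those of every other group, and the TSC groups overlap in each panel.

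Several measures moved together with pausing in ESC. Depth was 13607 and 19266 counts in ESC controls and 61749 and 73574 in paused ESC. The summed ESC markers were lower in paused ESC, as given above, and miR-302a-3p had no count there. Of these markers miR-302b-3p (log2 change -5.02, edgeR adjusted p = 2.95e-06), miR-302d-3p (-5.92, 3.58e-05) and miR-367-3p (-5.14, 2.57e-09) fell. For miR-708-5p the log2 change was -0.68 and was not called (edgeR adjusted p = 0.167). The blood list, of which miR-142a-3p, miR-142a-5p and miR-150-5p had counts and miR-223-3p, miR-451a and miR-486a-5p had none, summed to 7839 to 9650 CPM in ESC controls, 4610 to 5200 CPM in paused ESC and at most 178.3 CPM in TSC. Within that list miR-150-5p rose in paused ESC (log2 change 1.20, edgeR adjusted p = 0.00813), while miR-142a-5p (-4.25, 6.74e-20) and miR-142a-3p (-3.86, 2.27e-15) fell. The part of these measures in the changes of the members was not tested.

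In paused TSC no member passed the test, with 4 of 7 fold changes above 0. By edgeR 1 of 7 had an unadjusted p under 0.05, miR-17-3p, and by DESeq2 0 of 7. Of all tested miRNAs 18.9% were called. The log2 change of miR-17-3p was 0.92 ± 0.464 (edgeR adjusted p = 0.175). For miR-17-5p the 95% interval of the log2 change ran from -0.50 to 0.74, for miR-19a-3p from -0.38 to 0.85, and for miR-92a-3p from -0.51 to 1.02. The change of miR-92a-3p seen in ESC, 0.97, lies inside its interval in TSC. For miR-18a-5p (-0.05 ± 0.480), miR-20a-5p (-0.09 ± 0.430) and miR-19b-3p (-0.34 ± 0.700) the intervals were wider, and all 3 changed sign under other settings. The paused and control TSC libraries did not overlap for 1 of 7 members, against 48.5% of all tested, and the member median was 0.12 against -0.39 for all tested.

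Among the TSC markers, miR-322-5p (log2 change -1.24, edgeR adjusted p = 0.00120) and miR-503-5p (-1.22, 0.00360) fell in paused TSC. For miR-351-5p the log2 change was -0.11 and was not called (edgeR adjusted p = 0.869). The part of the marker changes in the members' values was not tested. The calls in TSC moved with the control libraries. Replicate 1 held 2524 counts on the cluster and replicate 2 held 289, and 6 of the 7 members were spread wider between them than between the paused TSC libraries. Without control TSC replicate 1 the log2 change of miR-19a-3p came to 1.35 and was called (edgeR adjusted p = 4.42e-05), and those of miR-18a-5p and miR-19b-3p came to 1.66 and 1.57 without a call. Without control TSC replicate 2, miR-17-3p was called (1.53, edgeR adjusted p = 0.0226). With scaling to the total count, which moved the median of all tested miRNAs by 0.51, miR-17-3p (1.44, edgeR adjusted p = 0.0266) and miR-19a-3p (0.74, 0.0178) were called.

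The change on pausing was then compared between ESC and TSC as a difference of differences. It passed for miR-17-3p only, which had a log2 change of -0.96 in ESC and 0.92 in TSC, a difference of -1.88 ± 0.738 (edgeR adjusted p = 0.0431). Of all tested miRNAs 26.2% were called in this test, and 11.7% as lower. This arm had 6 to 27 counts per library, and the call was lost with DESeq2 (-1.88, adjusted p = 0.229), with no filter (-1.89, edgeR adjusted p = 0.166), with a filter at 10 CPM (-1.25, 0.402), with TMM factors computed without the miR-290 cluster (-1.68, 0.104), and without 6 of the 8 libraries, taken out singly (edgeR adjusted p up to 0.182). Those are both control ESC libraries, paused ESC replicate 1, control TSC replicate 1 and both paused TSC libraries, with log2 differences of -1.71 to -2.08. Without paused ESC replicate 2 the difference was -2.75. For miR-92a-3p the difference of pause effects was 0.72 ± 0.518 (edgeR adjusted p = 0.311), so its change was not shown to differ between the cell types. For miR-17-5p it was -0.80 ± 0.445 (edgeR adjusted p = 0.168), which passed without control TSC replicate 1 (-1.37, 0.00153) and with scaling to the total count (-1.38, 0.000842).

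The seeds of the members are shared with arms made on other chromosomes, which is why some of those are shown next, from RefSeq (GRCm38.p6) with the seed in capitals. The first pair is from miR-106a-363 on chromosome X, the next pair from miR-106b-25 on chromosome 5, and the last is from the miR-290 cluster of early embryonic cells.
miR-106a-5p: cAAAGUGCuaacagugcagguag
miR-20b-5p: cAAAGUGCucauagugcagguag
miR-93-5p: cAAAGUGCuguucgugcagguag
miR-25-3p: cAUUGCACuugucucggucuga
miR-294-3p: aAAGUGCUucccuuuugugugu
The arm miR-106a-5p differs from miR-17-5p by U10A alone, the base of miR-17-5p standing first, and both have the seed AAAGUGC. Bases 3 to 9 of miR-17-5p spell AAGUGCU, which in miR-294-3p is the seed itself, at bases 2 to 8. The files list 5 arms with that seed. The arms miR-92a-3p and miR-25-3p share AUUGCAC.

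Of the counts on the 7 listed arms with the miR-17 seed, the cluster on chromosome 14 gave 43.3% and 43.8% in ESC controls, 30.5% and 31.3% in paused ESC, 70.1% and 69.7% in TSC controls, and 67.8% and 72.8% in paused TSC. Its arms miR-17-5p and miR-20a-5p were the main source in TSC, and in paused ESC they gave less than the X-linked arms. The miR-106a-363 arms miR-106a-5p and miR-20b-5p there gave 47.3% and 47.5%, against 42.1% and 41.7% in ESC controls. In control TSC these X-linked arms gave 0.881% and 0.375%, and in paused TSC they had no count. The miR-106b-25 arms miR-93-5p and miR-106b-5p gave 14.6% and 14.5% in ESC controls, 22.3% and 21.2% in paused ESC, 29.0% and 30.0% in TSC controls, and 32.2% and 27.2% in paused TSC. The family as a whole held 5.28% to 6.72% of all counts in ESC libraries and 1.43% to 2.46% in TSC libraries.

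**Figure D5:**
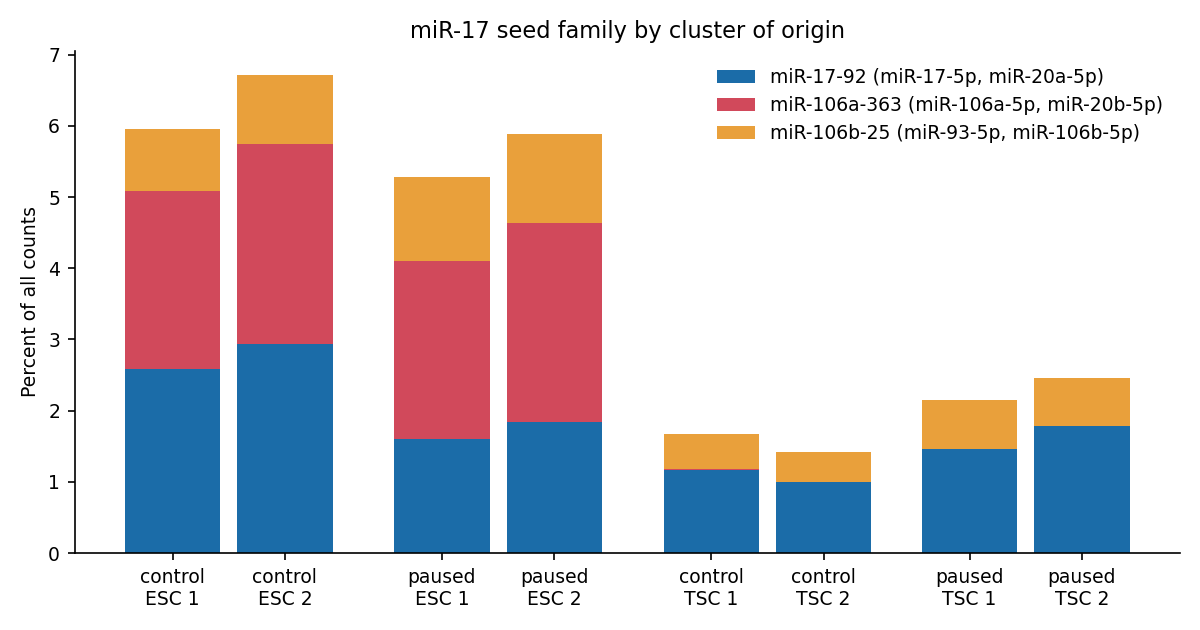
Percent of all counts on arms with the seed AAAGUGC in each of the 8 libraries, stacked by the cluster that makes them. The part from miR-106a-363 is 2.49 to 2.80 percent in the ESC libraries and at most 0.0147 percent in the TSC libraries, while the part from miR-17-92 is present in all 8.

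The other seeds divided differently. With the seed of miR-18a-5p, AAGGUGC, the X-linked miR-18b-5p had 16 counts in all libraries against 492 on miR-18a-5p. With the seed AUUGCAC, miR-92a-3p gave 22.0% to 26.9% of the family's counts in ESC and 13.6% to 22.4% in TSC. The rest was mostly miR-25-3p of miR-106b-25, with 4285 counts against 1516 on miR-92a-3p. In paused ESC miR-25-3p also rose, from 10983 and 8947 CPM to 24004 and 20295 CPM (log2 change 1.15 ± 0.326, edgeR adjusted p = 0.00272). Also with this seed, miR-32-5p fell in paused ESC (-1.33 ± 0.516, edgeR adjusted p = 0.0374), from 592.5 and 639.1 CPM to 224.5 and 263.0 CPM, and miR-367-3p fell as well (edgeR adjusted p = 2.57e-09), from 20 counts in each control library to 1 and 3 in the paused ones. With the seed of miR-17-3p, CUGCAGU, the X-linked miR-20b-3p and miR-106a-3p had 24 and 11 counts against 120.

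Over the miR-106a-363 arms that chromosome X alone makes, 4 of 10 were tested. In paused ESC 1 of these was called higher and none lower, miR-363-5p (log2 change 1.10 ± 0.408, edgeR adjusted p = 0.0300). In that comparison 27.7% of all tested miRNAs were called. In control ESC all 4 were higher than in TSC controls, for example miR-106a-5p at 9434 and 9331 CPM against 89.2 and 60.2 CPM. All 4 were also higher in paused ESC than in paused TSC, where they had no count. These 4 arms passed the filter through the ESC libraries only, so this direction was largely fixed by their being tested. Among all tested miRNAs 33.5% were higher in control ESC and 37.4% in paused ESC. The 10 arms held 971 counts in ESC controls, 4007 in paused ESC, 19 in TSC controls and 0 in paused TSC. The 0 counts allow a share of up to 0.0127% and 0.00984% of all counts in the libraries of paused TSC, where miR-17-5p had 328 and 512 counts. In TSC controls miR-106a-5p had 7 and 1 counts and miR-20b-5p had 10 and 0, against 0 in paused TSC. The test called both lower in paused TSC, miR-106a-5p by -4.85 ± 1.85 on the log2 scale (edgeR adjusted p = 0.0475). For miR-20b-5p the log2 change was -5.11 ± 1.77 (edgeR adjusted p = 0.0294). Both calls rest on these few counts, and 18.9% of all tested miRNAs were called there. Of the 6 miR-106b-25 arms 5 were tested, and miR-25-3p was the 1 called in paused ESC and none was called in paused TSC. The shares of all tested miRNAs called, 27.7% and 18.9%, make these counts nothing particular to this cluster.

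Which locus made the counts of miR-92a-3p and miR-19b-3p can be looked at through the opposite arms of the same hairpins, whose sequences do differ between the loci. In TSC, miR-92a-1-5p of chromosome 14 had 12 counts and miR-92a-2-5p of chromosome X had 0, and miR-19b-1-5p had 17 against 0 of miR-19b-2-5p. In ESC, miR-92a-1-5p had 10 counts against 20 on miR-92a-2-5p, so chromosome 14 gave 33.3% of the pair (95% exact binomial interval 17.3% to 52.8%). For miR-19b-1-5p and miR-19b-2-5p the ESC counts were 16 and 7, and chromosome 14 gave 69.6% (47.1% to 86.8%). In control and paused ESC miR-92a-1-5p had 1 and 9 counts and miR-92a-2-5p had 2 and 18, too few to divide the rise of miR-92a-3p between the loci. A passenger arm's share need not equal that of the mature arm.

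Not given in the sources used here is how reads that match more than 1 locus were counted, which bears on the level of miR-19b-3p and miR-92a-3p. Of the 1679 listed arms found by name in RefSeq, 53 have 2 or more loci there, and 84.9% of these 53 had no count in any library, against 67.0% of the 1626 with 1 locus. The 53 arms held 0.476% of all counts, of which miR-92a-3p had 1516 counts, miR-19b-3p had 112 and the rest had 70. The arm miR-19a-3p, which has 1 locus and differs from miR-19b-3p by 1 base, had 12812. The part of the copy number in these levels was not tested.

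Of the other 5 arms of the cluster's hairpins only miR-20a-3p was deep enough to test. It was at 1550 and 830.8 CPM in ESC controls, 872.9 and 959.1 CPM in paused ESC, 815.3 and 60.2 CPM in TSC controls, and 372.0 and 544.3 CPM in paused TSC. Like its partner miR-20a-5p it was higher in ESC than in TSC, by 1.06 ± 0.424 on the log2 scale in control cells (edgeR adjusted p = 0.0182) and by 0.97 ± 0.424 in paused cells (0.0305). Its counts per count of miR-20a-5p differed by 0.12 on the log2 scale between ESC and TSC (exact permutation p = 1). That value rests on control TSC replicate 2, with 1 count of miR-20a-3p and a ratio of 0.0588. The other 3 TSC ratios, 0.914, 0.500 and 0.545, lie above the 4 ESC ratios of 0.295 to 0.493. The 5 other arms together had 54, 158, 83 and 45 counts in ESC controls, paused ESC, control TSC and paused TSC, where the members had 2793, 13458, 2813 and 1632.

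Across the 8 libraries the members did not all vary alike. As a description over points that share cell type and depth, log2 CPM of miR-19a-3p had a Pearson r of 0.97 with miR-18a-5p and 0.97 with miR-92a-3p, and miR-18a-5p one of 0.93 with miR-92a-3p. The correlation of miR-17-5p with the other 5p and 3p arms apart from miR-17-3p was 0.33 to 0.63. That of miR-17-3p was 0.07 with miR-17-5p, from the same hairpin, and -0.60 to -0.74 with the other 5. Among all other tested miRNAs, those whose log2 CPM most resembled the members' mean over the 8 libraries were miR-382-5p (r = 0.98), miR-323-3p (0.97), miR-299a-5p (0.97), miR-135b-5p (0.97) and miR-337-5p (0.96). Each was far higher in ESC, such as miR-323-3p with means of 1783 and 1993 CPM in control and paused ESC and 31.9 and 35.8 CPM in control and paused TSC. The TSC means of these 5 ran from 25.5 to 90.7 CPM, about what 3 counts give, so their values there rest on few counts.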

How the data were processed

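Raw counts, 1 whole number per mature miRNA for 1978 miRNAs, were deposited by the authors for each sample with the mouse build GRCm38 named in the submitters' processing notes. Not given in the sources used here are the aligner, the counter, the miRNA release and how reads with several loci were counted. Per the labels' protocols, libraries were made with the SMARTer smRNA-seq kit, and no molecular identifiers are named.

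Of each pair of identical files 1 was kept. The labels do not say that libraries came from separate cultures, so p-values measure only the spread between these samples, which may be technical. Counts of 8 libraries in 4 groups were fitted together with edgeR 4.0.16 in R 4.3.3 (quasi-likelihood test, TMM scaling, filterByExpr with a minimum of 10 counts, about 369 CPM at the median depth), which left 206 miRNAs, a common dispersion of 0.0456 and 4 residual degrees of freedom. The spread of each miRNA was drawn wholly to the common trend. Calls were made at a Benjamini-Hochberg adjusted p under 0.05 over all tested miRNAs, two-sided. The comparisons share libraries, so their values are not independent. The script was tested on simulated data.

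Shares of counts and ratios between arms were compared by exact two-sided permutation tests (SciPy 1.17.1), and intervals of shares are exact binomial. Sequences and coordinates are from RefSeq tables of GRCm38.p6, where entries are matched by name. Named were all 7 members, the other arms of their hairpins, arms of the paralog clusters and seed families (those called and up to 4 of the most abundant), and the 5 miRNAs most correlated with the members' mean. Members and lists were chosen with earlier results of these data known. Alternatives were DESeq2 1.42.0, 3 other scalings, 2 other filters, every file as a library, only the compared groups, replicate blocks and each library left out in turn. All 8 distinct libraries were used.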

Additional observations from a re-analysis of the deposited data

Results flagged for a closer look

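The response of miR-17-3p to pausing differed between ESC and TSC in the test of the difference itself. Its difference of pause effects, ESC minus TSC, was -1.88 on the log2 scale (edgeR adjusted p = 0.0431), from a change of -0.96 in ESC and 0.92 in TSC, neither of which passed alone. The paused libraries were below the control libraries in ESC and above them in TSC, on 6 to 27 counts per library. The call was lost under several other settings, as given with the result, and the direction did not change under any of them.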

How the results depend on the processing

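Depth limits what can be seen of the scarce arms miR-17-3p and miR-19b-3p, with 120 and 112 counts in all. Of the members' fold changes recomputed under alternatives, 510 kept their direction and side of the threshold, and 71 changed sign, 19 gained and 22 lost a call.

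The number of members called in paused against control ESC, 1 in the main analysis, was 2 with median-of-ratios scaling, with the total count alone (1 higher, 1 lower) and with every file as a library, 3 with only the groups compared, and 0 with TMM factors computed without the miR-290 cluster. It ran from 0 to 3 with each library left out in turn, with 0 without paused ESC replicate 1, where 6 members were tested. In TSC it was 2 with the total count alone, 1 with every file as a library, 0 to 1 with each library left out, and 0 otherwise. For the difference of pause effects, 1 in the main analysis, it was 2 with the total count alone and with every file as a library, 0 with TMM factors computed without the miR-290 cluster, with DESeq2, with no filter and with a filter at 10 CPM, and 0 to 1 with each library left out. Between ESC and TSC it was 4 to 5 in control cells and 5 to 6 in paused cells under every alternative run. The cause of these moves was not tested. Other scalings moved the median of all tested miRNAs by -0.60 to 0.67.

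Of the counts outside the miR-290 cluster the members held 23.6%, 28.6%, 3.94% and 7.24% in control ESC, paused ESC, control TSC and paused TSC. In paused ESC the share of all counts was 9.04% without miR-19b-3p and miR-92a-3p and 10.1% with the 5 other arms.

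Changes of sign were confined to values that were not called. In paused against control ESC, miR-18a-5p was 0.077 with no filter and miR-20a-5p -0.063 with the total count alone. In TSC, miR-18a-5p was 0.22 with median-of-ratios scaling, 0.50 with the total count alone, 0.27 with DESeq2, 0.31 with no filter, 0.19 with every file as a library and 0.19 with only the groups compared. There miR-20a-5p was 0.15 with median-of-ratios scaling, 0.40 with the total count alone, 0.14 with DESeq2, 0.24 with no filter and 0.065 with only the groups compared. With the filter at 10 CPM miR-17-5p was -0.26, miR-19a-3p -0.16 and miR-92a-3p -0.13, and miR-19b-3p was 0.22 with the total count alone, 0.12 with DESeq2 and 0.032 with no filter. In the difference of pause effects, miR-18a-5p was 0.45 with the filter at 10 CPM, and with the total count alone miR-19a-3p was -0.26 and miR-20a-5p -0.46. Between the paused groups, miR-17-5p was 0.28 with median-of-ratios scaling and with DESeq2, 0.55 with TMM factors computed without the miR-290 cluster, 0.21 with no filter, 0.52 with the filter at 10 CPM and 0.068 with only the groups compared.

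With each library left out in turn, miR-18a-5p ran from -0.30 to 0.14 in ESC on pausing, and in TSC miR-18a-5p ran from 0.053 to 1.66, miR-20a-5p from -0.061 to 0.56 and miR-19b-3p from -0.15 to 1.57. In the difference of pause effects miR-19a-3p ran from -0.69 to 0.58, miR-20a-5p from -0.31 to 0.43, miR-19b-3p from -0.87 to 1.23 and miR-92a-3p from -0.18 to 0.88. Between the cell types miR-17-3p ran from -0.031 to 0.63 in control cells and miR-17-5p from -0.21 to 0.18 in paused cells. A group left with 1 library is assumed to vary like the others.

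The groups share replicate numbers, but the labels do not say that a number marks a shared culture or day. Deviations of same-numbered libraries from their group means correlated by -0.18 to 0.08 over 206 miRNAs. With 2 libraries per group such a check cannot tell whether same-numbered libraries share a culture or day. With the replicate number as a block within each cell type, 0 members were called in paused against control ESC, where the change of miR-92a-3p was 0.97 (edgeR adjusted p = 0.0997), and 0 in the difference of pause effects, as with the block over all libraries. With that block within cell type miR-17-3p between control ESC and control TSC was -0.24 and miR-18a-5p in TSC on pausing was 0.16, and with the block over all libraries the latter was 0.035. A block crossing the numbers in TSC, added after seeing the data, called 0 members there, with miR-18a-5p at 0.078.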
